A study of Mus musculus with 3 samples.

Results

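The lower hair follicle bulge-type keratinocytes are 1437 single-cell barcodes of mouse dorsal skin, out of 33204 barcodes that passed the quality limits in 3 droplet libraries. A barcode passed with at least 500 genes, at least 1000 unique molecular identifiers (UMIs, the counted RNA molecules) and at most 15% mitochondrial UMIs. It was taken as a bulge-type keratinocyte when it held at least 1 UMI of at least 2 of 7 hair follicle genes (Lhx2, Lgr5, Krt24, Tgm5, Il31ra, Wfdc3 and Pdzrn4) and of at least 2 of 6 keratinocyte genes (Krt5, Krt14, Krt15, Krt17, Dsp and Perp). It also had at most 1 UMI of the division genes Mki67, Cenpf and Ube2c together, and none of the blood cell gene Ptprc or the endothelial gene Pecam1. The cells were thus chosen by the measured UMIs of these genes, whose levels are given below as a description.

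The bulge is the part of the hair follicle below the sebaceous gland that holds the hair follicle stem cells. In resting follicles these cells sit quietly around the base of the club hair, and they are activated at the start of a new hair cycle to build the growing lower follicle. Transcription factors such as Sox9, Lhx2, Nfatc1 and Tbx1 mark them, Lgr5 marks the lower bulge and the hair germ beneath it, and BMP signals hold them at rest while Wnt signals accompany their activation.

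The young control library came from 2.5-month-old Yap1 fl/fl; Wwtr1 fl/fl mouse skin. The young YAP/TAZ knockout library came from skin of the same age and floxed alleles with the addition of R26-CAG-CreER. This allele expresses a Cre recombinase that tamoxifen activates, from a promoter active in most cell types, so the deletion is not limited to keratinocytes. Both young groups received tamoxifen by gavage at 0.11 mg per g body weight, on 2 days of each week over 4 weeks. The old control library came from 24-month-old wild-type skin, untreated, so that old and young controls differ in age, in the floxed alleles and in tamoxifen, and these cannot be told apart. Each group is 1 library: there is no replicate check and no test across animals, the labels name neither the number of animals behind a library nor the hair cycle stage, and every interval below covers counting error alone. The knockout library also differed in sex from the young control: its bulge-type keratinocytes had 116 UMIs of the Y-linked gene Ddx3y against 0 in either control, and 1 UMI of Xist against 1907 CPM (UMIs scaled to a total of 1000000) in the young and 1489 CPM in the old control.

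The young control held 581 bulge-type keratinocytes among 11722 passing barcodes, a share of 4.96% (exact 95% binomial interval 4.57 to 5.37%). The old control held 665 among 12074, or 5.51% (5.11 to 5.93%), and the knockout 191 among 9408, or 2.03% (1.75 to 2.34%). The rule finds more cells where more RNA was read per cell, and the median depth of the members was 8887 UMIs in the young control, 4348 in the old control and 3289 in the knockout. Barcodes with at least 1500 UMIs were then thinned to 1500, which left out 1029 young, 4784 old and 2564 knockout barcodes. The rule on the thinned counts gave 294 young, 265 old and 68 knockout cells. Their shares of the thinned barcodes were 2.75% in the young control, 3.64% in the old control and 0.994% in the knockout. The order of the 3 libraries was the same before and after thinning, with the knockout lowest. The barcodes compared were not the same. The order of the controls turned when more follicle genes were required: with at least 3 of the 7 the shares were 3.47% in the young control, 2.62% in the old control and 0.542% in the knockout. The median mitochondrial share of the members was 5.03%, 5.53% and 8.69% in the young control, old control and knockout. Of all barcodes in the knockout library 62.4% were over the mitochondrial limit, against 12.3% in the young and 19.4% in the old control, and the part of this loss in the lower knockout share was not tested. No barcode was shared between the members of any 2 libraries.

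The 7 hair follicle genes were unevenly detected among the members. Lhx2, a transcription factor that maintains hair follicle stem cells, had at least 1 UMI in 84.7% of young, 75.0% of old and 80.1% of knockout members, and its level was 381, 376 and 387 CPM. Lgr5, a receptor for R-spondins that amplifies Wnt signalling, had UMIs in 75.2%, 51.4% and 53.4% of members, with 290.4, 173 and 150.5 CPM. Tgm5, a transglutaminase, had UMIs in 59.7%, 47.1% and 43.5%. Krt24, a type I keratin of the bulge, had UMIs in 21.0% of young, 31.0% of old and 29.8% of knockout members, with 53.8, 139 and 234 CPM. Lhx2 stood at nearly the same level in the 3 libraries, while Lgr5 was highest and Krt24 lowest in the young control. These genes chose the cells, the depth of the members differed and these shares were not thinned. No difference between libraries is therefore read from them. Il31ra, a receptor chain for interleukin 31, was at 132, 115 and 68.7 CPM, Pdzrn4 at 132, 77.8 and 55.7 CPM, and Wfdc3 at 87.6, 84.0 and 29.5 CPM. Among the keratinocyte genes of the rule, Krt17, a keratin of the outer root sheath and of stressed epidermis, was at 831 CPM in young, 2296 CPM in old and 1095 CPM in knockout members, whereas Krt15, a bulge and basal keratin, was at 4438, 3296 and 5352 CPM.

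Many members lay close to the edge of the rule. Exactly 2 of the 7 genes were detected in 174 of the 581 young, 349 of the 665 old and 140 of the 191 knockout members, and at least 5 in 197, 93 and 19. The barcodes just outside, which met every other clause with exactly 1 gene, numbered 845, 1361 and 591. Sox9, a transcription factor of the outer root sheath and bulge, was at 138 CPM just outside and 309.8 CPM just inside the rule in the young control, and at 665 CPM with 3 or more genes. In the old control Sox9 was at 315, 406 and 706 CPM in the same 3 steps. Postn, which encodes the matrix protein periostin, was at 328, 353 and 1508 CPM in the young and 177, 381 and 877 CPM in the old control. Both genes were thus highest where the most follicle genes were detected, in both controls. Krt10, the keratin of differentiating epidermis, ran the opposite way: 1732, 212 and 127 CPM in the young control and 1907, 1348 and 420.1 CPM in the old control. The old members with exactly 2 genes therefore held 1348 CPM of Krt10 where the matching young members held 212 CPM, and the old members at the edge of the rule resembled the barcodes outside it in this gene more than the young ones did.

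**Figure D1:**
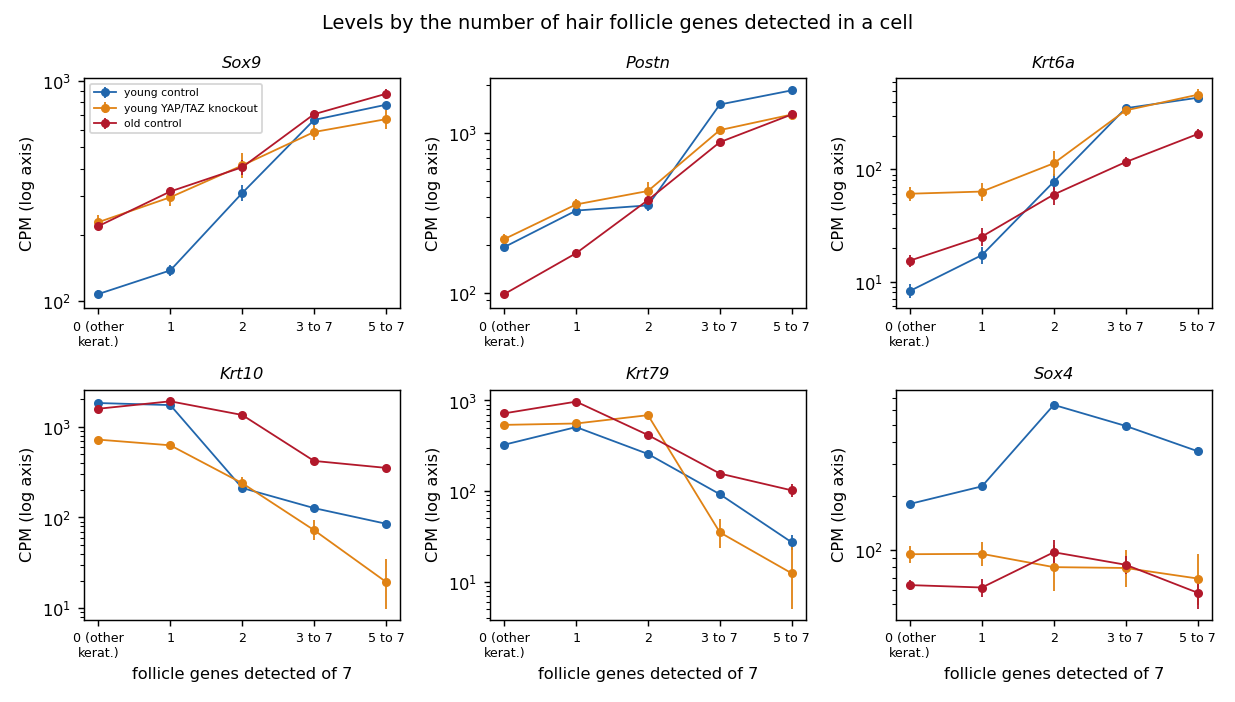
Level of 6 genes (CPM of the pooled UMIs, log axis) by how many of the 7 hair follicle genes a cell showed, from other keratinocytes with none to cells with 5 to 7, in the 3 libraries; the group 5 to 7 is part of 3 to 7, and bars are 95% Poisson intervals. Sox9, Postn and Krt6a were highest in cells with the most follicle genes, Krt10 and Krt79 lowest there, and Sox4 was highest in the young control at every step.

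Genes outside the rule were compared between the members and other keratinocytes of the same library. The gene lists were chosen with earlier results of these data known, so this describes the label and is no independent check of it. The other keratinocytes had at least 3 of 8 epithelial genes, none of the 7 hair follicle genes, and the same limits, and numbered 3359 in the young control, 5517 in the old control and 1084 in the knockout. Their median depth was 6562, 1564 and 2162.5 UMIs in the same order. A cell meets the clause of no follicle gene more easily at low depth, so follicle cells may lie among them. The part of this in the ratios was not tested. A gene was called by size where its mean over both sides was at least 20 CPM, its ratio was at least 2 or at most 0.5, and the interval bound nearer to 1 was past a 1.5-fold difference. Of 27 bulge stem cell genes outside the rule that were high enough to be called in the young control, 19 were called higher in the members, where 5.24% of 6494 genes were called higher. In the old control 18 of 28 were called, against 2.91% of 6005 genes, and in the knockout 15 of 27, against 3.4% of 6268 genes. The median log2 ratio of the list was 1.49 in the young, 1.26 in the old control and 1.08 in the knockout, beside 0.05, -0.06 and -0.08 over all genes. Genes of the growing hair matrix and shaft, Hoxc13 among them, were also higher as a sum. These 11 genes held 227 CPM in young members and 38.8 CPM in other young keratinocytes. The sums were 168 and 73.6 CPM in the old control and 111 and 79.6 CPM in the knockout. The higher levels in members were thus not exclusive to bulge genes.

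The genes that separated the members most clearly were ranked by the lower bound of their ratio to other keratinocytes, taking the control where it was smaller. Shisa2, which encodes an endoplasmic reticulum protein that holds back Wnt and FGF receptors, was at 138 CPM in young members and 3.32 CPM in other young keratinocytes, a ratio of 41.4, and at 117 against 9.46 CPM in the old control, a ratio of 12.3. Tbx1, a T-box transcription factor linked to the self-renewal of bulge cells, was at 145 against 3.40 CPM in the young and 89.7 against 10.6 CPM in the old control. Hoxc13, a homeobox gene required for hair keratins, was at 113 against 1.74 CPM in the young and 74.1 against 5.92 CPM in the old control. These 3 genes were near absent from other keratinocytes in both controls, and their levels there were higher in the old control. Other keratinocytes had a median of 6562 UMIs in the young and 1564 in the old control. The part of this depth in the levels and ratios was not tested. The hair keratin-associated protein gene Krtap17-1, the calcium-dependent kinase gene Camk4, the amino acid transporter gene Slc38a4, the potassium channel gene Kcnk2 and the adhesion molecule gene Sdk2 also ranked among the first 9, with young ratios of 78.3, 31.8, 23.9, 14.9 and 18.8 and old ratios of 13.6, 11.9, 10.3, 8.09 and 7.85. Ctgf, a secreted matricellular protein and a known YAP/TAZ target, was at 529 against 46.3 CPM in the young and 421 against 46.3 CPM in the old control. Postn was at 1257 against 194 CPM and 725 against 98.4 CPM, and Ptn, the growth factor pleiotrophin, at 861 against 80.5 CPM and 1020.1 against 162 CPM. Of the 340 genes called higher in young members and the 175 in old members, 144 were called in both controls, which is 42.4% of the young and 82.3% of the old list, and 81 were also called in the knockout.

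Some well-known bulge genes were not called higher in the members than in other keratinocytes. Cd34, a surface protein used to sort mouse bulge cells and also present on dermal fibroblasts, was at 337 CPM in young members and 259 CPM in other young keratinocytes, and at 154 against 89.8 CPM in the old control, and was called in neither. The other keratinocytes carried fibroblast RNA: 12 fibroblast markers summed to 19403 CPM in the young and 3511 CPM in the old control. In the remaining cells of these libraries they summed to 20740 and 7496 CPM. Schwann and glial markers summed to 1656 CPM in other young keratinocytes and 971 CPM in the remaining young cells. This mixed set is the reference of every ratio to other keratinocytes and of the counts of shared calls. Against keratinocytes with at least 5 of the 8 epithelial genes, in which Col1a1 was at 906 CPM in the young and 163 CPM in the old control, the Cd34 ratio was 4.99 in the young and 4.08 in the old control, a comparison added after the first had been seen. Krt15 was at 4438 CPM in young members and 3707 CPM in other young keratinocytes, and at 3296 against 2672 CPM in the old control. Nfatc1, a transcription factor that keeps bulge cells quiescent, was at a ratio of 1.88 in the young and 1.77 in the old control. In the young control 6.94% of genes were called lower in the members, in the old control 5.58% and in the knockout 6.43%. Markers of the differentiated epidermis and of the upper follicle were among them in both controls, with Krt10 at ratios of 0.0796 and 0.446, Krt1 at 0.0492 and 0.408 and Krt79 at 0.394 and 0.327.

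**Figure D2:**
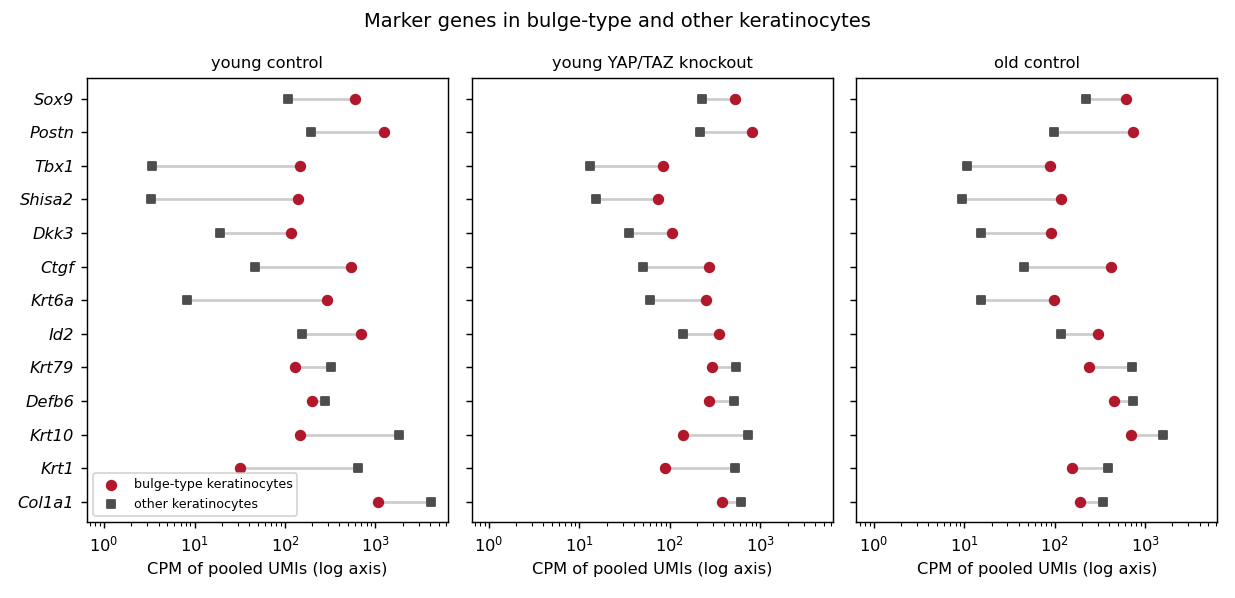
Levels of 13 genes (CPM of the pooled UMIs, log axis) in bulge-type keratinocytes (circles) and other keratinocytes (squares) of each library. Sox9, Postn, Tbx1, Shisa2, Dkk3, Ctgf, Krt6a and Id2 lay higher in the bulge-type cells of all 3 libraries, and Krt79, Defb6, Krt10, Krt1 and Col1a1 lay lower.

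RNA of other cell types was present in the members. Melanocytes and their stem cells lie beside bulge keratinocytes, and 8 melanocyte markers summed to 726 CPM in young, 301 CPM in old and 866 CPM in knockout members, against 276, 150.3 and 236 CPM in other keratinocytes. UMIs of at least 3 of the 8 melanocyte markers were found in 66 of 581 young members (11.4%), 35 of 665 old members (5.26%) and 29 of 191 knockout members (15.2%), and none of the 8 markers was at 0 in any library. The fibroblast markers summed to 6020.3 CPM in young, 1634 CPM in old and 1987 CPM in knockout members. Smooth muscle and pericyte markers stood at 232, 359 and 1326 CPM, immune markers at 207, 357 and 177 CPM, and endothelial markers at 35.7, 59.9 and 157 CPM. Schwann and glial markers summed to 202, 161 and 581 CPM, with 2 of 3 called higher in the knockout, and red blood cell markers to 274, 117 and 192 CPM, with 4 of 4 called lower in the old control. Over all genes 3.28% were called higher in the knockout and 3.22% lower in the old control. The part of this RNA in the differences between libraries was not tested except where a value is given.

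The main comparison asked how bulge-type keratinocytes differed between the old and the young control. Old members held more RNA of epidermal differentiation genes and of Cst6, and less of Sox4, Slc7a8 and Myoc. Among the bulge stem cell genes outside the rule, Sox9, Nfatc1 and Foxc1 stood at nearly equal levels. Most of that list lay below equal levels in old members, and Id2, Ltbp2 and Cd34 were called lower. Of 6147 genes high enough to be called, 51 (0.83%) were called higher and 198 (3.22%) lower in old members. The median log2 ratio over all genes was -0.21, and with edgeR's TMM scaling factors, which brought that median to -0.03, 89 genes were called higher and 120 lower. The share of calls that were higher was thus 20.5% with library totals and 42.6% with TMM factors, so the balance of directions depends on the scaling, while all 51 higher calls and 120 of the 198 lower calls were made with both. In other keratinocytes 1.23% of 6265 genes were called higher and 3.1% lower. Of the 51 genes called higher in members, 14 were also called higher in other keratinocytes, and of the 198 called lower, 74 were called lower there.

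**Figure D3:**
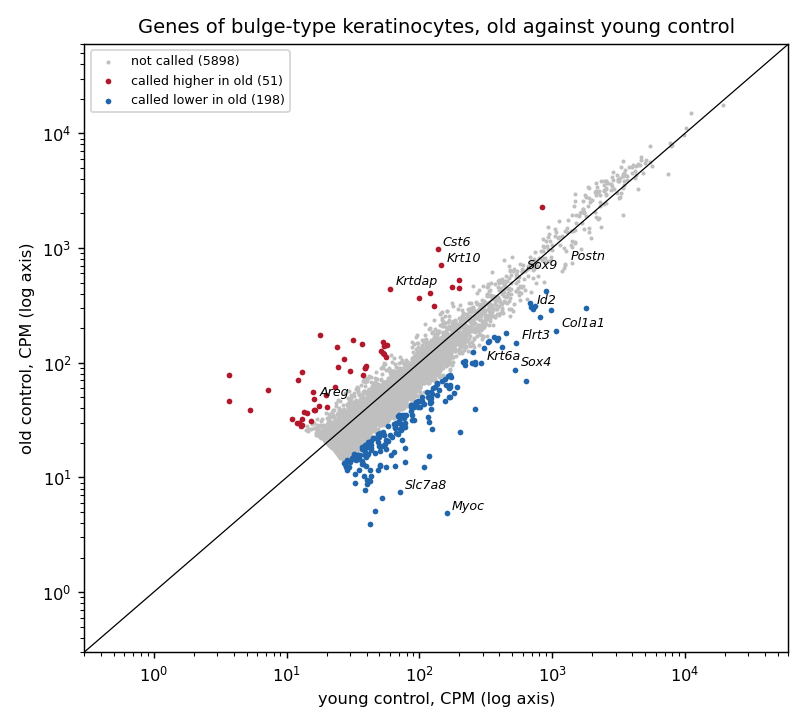
Level of each of 6147 genes in bulge-type keratinocytes of the young control (horizontal) and the old control (vertical), in CPM of the pooled UMIs on log axes; the line marks equal levels and colours the calls by size. The 51 genes called higher include Krt10, Krtdap and Cst6, the 198 called lower include Myoc, Slc7a8 and Sox4, and Sox9 lies near the line.

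Differentiation genes of the epidermis led the genes higher in old members. Of 8 suprabasal and granular genes that were high enough, 5 were called higher and 0 lower, with a median log2 ratio of 1.49. Over all genes 0.83% were called higher and 3.22% lower, with a median of -0.21. Krt10 (chr11:99385254-99389364, mm10) was at 145 CPM in young and 705 CPM in old members, a ratio of 4.85 (95% counting interval 4.55 to 5.18). Krt1, its partner keratin, was at 31.7 and 157 CPM, a ratio of 4.95 (4.31 to 5.70). Krtdap, a secreted protein of differentiating keratinocytes, was at 59.9 and 439 CPM, a ratio of 7.33 (6.66 to 8.08). In other keratinocytes the same genes were at old over young ratios of 0.865, 0.598 and 1.49, so none was called higher there. Mt4, a metallothionein of stratified epithelia, was at a ratio of 6.37, and Dsg1a, a desmosomal cadherin of upper layers, at 2.30. Ovol1, a transcription factor of epidermal differentiation, was at 27.1 and 108 CPM, a ratio of 3.99, and Sprr1a, a cornified envelope precursor, at 23.9 and 137 CPM, a ratio of 5.75. In other keratinocytes Ovol1 was at a ratio of 1.41, and Sprr1a at 3.39, where it was also called higher. Members of the list that did not pass were Sbsn at a ratio of 1.28, Dmkn at 1.24 and Calml3 at 0.692.

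This RNA was concentrated in few cells. The 34 old members with the most Krt10 UMIs held 69.9% of all Krt10 UMIs of the 665, and the same number held 79.4% of Krt1. After thinning to 1500 UMIs, Krt10 had at least 1 UMI in 21.1% of 579 young (17.8 to 24.6%) and 38.8% of 570 old members (34.8 to 42.9%). Thinned ratios come from the 294 young and 265 old cells that met the rule on thinned counts. Of these, 257 and 239 were members before thinning. The Krt10 ratio in these thinned cells was 2.32. The thinned Krtdap ratio was 2.40. In members with at least 5 of the 7 follicle genes, the strictest cells examined, Krt10 was at 85.4 CPM in 197 young and 352 CPM in 93 old cells, and Krtdap at 34.6 and 283 CPM. The difference was therefore also present away from the edge of the rule. Krt77, a keratin of interfollicular and duct epithelium, was at 120.0 and 407 CPM, a ratio of 3.39, but its thinned ratio was 1.41 and did not pass.

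Of 10 upper follicle genes 2, Cst6 and Defb6, were called higher in old members, as were 6 of 11 in other keratinocytes, with median log2 ratios of 0.59 and 0.88. The share of all genes called higher was 0.83% in members and 1.23% in other keratinocytes. Cst6, a cysteine protease inhibitor of the infundibulum and sebaceous duct, was at 137 CPM in young and 970.2 CPM in old members, a ratio of 7.09 (6.65 to 7.55), and at a ratio of 4.70 in other keratinocytes, where it was also called. In members with at least 5 follicle genes it was at 37.7 and 493 CPM, and the ratio there was 13.1. Thinned to 1500 UMIs, 12.1% of young and 44.4% of old members had a Cst6 UMI. The 34 old members with the most Cst6 UMIs held 67.6% of them, and the highest single cell held 1852 of 4976. In the young control 30 members held 77.4%. Defb6, a defensin of the upper follicle, was at 198 and 450.4 CPM, a ratio of 2.27 in members and 2.69 in other keratinocytes. Krt79, a marker of the infundibulum, was at 128 and 236 CPM in members, a ratio of 1.84 that did not pass.

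Other genes higher in old members included Cldn4, a tight junction claudin, at 7.26 and 57.5 CPM, a ratio of 7.92 (6.02 to 10.6) in members and of 3.81 in other keratinocytes, where it was also called, and Apoc1, an apolipoprotein, at 175 and 461 CPM, a ratio of 2.64. After thinning, 17.3% of young and 48.9% of old members had an Apoc1 UMI, and other keratinocytes had a ratio of 2.11. Nr4a3, an orphan nuclear receptor of the early response, was at 53.6 and 152 CPM, a ratio of 2.84. Areg, which encodes the EGF receptor ligand amphiregulin, was at 16.1 and 47.8 CPM, a ratio of 2.96, and at 3.80 in other keratinocytes. Ly6d, a surface protein of stratified epithelia, was at 199.6 and 524 CPM, a ratio of 2.63. Cdkn1a, the cell cycle inhibitor p21, was at 429.7 and 782 CPM, a ratio of 1.82 that did not pass. Among 14 cell cycle inhibitors and Trp53 targets high enough to be called, Gadd45a, a stress-response gene, was the 1 called higher, at 20.3 and 40.9 CPM. The share over all genes was 0.83%.

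Sox4, which is expressed in hair follicle progenitors, was the one transcription factor among the 15 named genes lowest in old members. Sox4 (chr13:28948919-28953713, mm10) was at 525 CPM (510.0 to 541) in young, 87.2 CPM (79.3 to 95.6) in old and 79.7 CPM (65.9 to 95.6) in knockout members. The old over young ratio was 0.166 (0.150 to 0.183). In other keratinocytes the ratio was 0.352, and it was also called there, from 181 to 63.7 CPM. The difference was present at every step of the rule: with exactly 2 follicle genes Sox4 was at 645 CPM in young and 97.1 CPM in old cells, and with at least 5 at 356 and 57.8 CPM. After thinning, 34.4% of young (30.5 to 38.4%) and 8.77% of old members (6.58 to 11.4%) had a Sox4 UMI.

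Slc7a8 and Myoc were higher in the members than in other keratinocytes of the young control, and both were called lower in old members. Slc7a8 (chr14:54722209-54781946), a transporter of neutral amino acids, was at 70.9 CPM in young members and 3.17 CPM in other young keratinocytes, and at 7.41 and 1.53 CPM in the old control. Its ratio in members was 0.105 (0.0732 to 0.145), and knockout members stood at 7.56 CPM. Myoc (chr1:162639155-162649693), which encodes the secreted glycoprotein myocilin, was at 160.1 CPM in young, 4.87 CPM in old and 48.1 CPM in knockout members, with an old over young ratio of 0.0304 (0.0196 to 0.0451). In members with at least 5 follicle genes Myoc was at 229 CPM in young and 1.82 CPM in old cells, a ratio of 0.00796 (0.00164 to 0.0233) that rests on 3 old UMIs. Other keratinocytes held 37.6 CPM of Myoc in the young and 9.04 CPM in the old control, a ratio of 0.240 that was also called lower.

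Of the called genes, 43 of the lower and 4 of the higher ones were also at least 2 times as high in members as in other keratinocytes and in all remaining cells of the library where they were higher. Lower genes meet this through the young and higher genes through the old library, so the 2 counts are not compared. The group, and the genes of it named here, were chosen after their values were seen, and it also holds melanocyte genes, among them Pmel, Dct, Tyrp1 and Mitf. Flrt3, a membrane protein that binds FGF receptors and latrophilins, was at 537 and 149 CPM in young and old members, a ratio of 0.277 (0.256 to 0.299), against 0.867 in other keratinocytes. Afdn, the junction protein afadin, was at 814 and 251 CPM, a ratio of 0.309 (0.291 to 0.328), against 0.878. Cd24a, a glycosylated surface protein of follicle progenitors, was at 446 and 181 CPM, a ratio of 0.406 (0.377 to 0.436), against 1.05. These 3 genes were picked from a group that required high levels in young members, so their contrast with other keratinocytes is a description. Car12, a carbonic anhydrase, was at 183 and 54.8 CPM, a ratio of 0.299, and at 1.87 in other keratinocytes. Nppc, the C-type natriuretic peptide, was at 118 and 30.2 CPM, a ratio of 0.255, which was 0.462 in members with at least 5 follicle genes. Krt6a, a keratin of the companion layer, inner bulge and wounded epidermis, was at 292 and 98.8 CPM, a ratio of 0.339 (0.308 to 0.373), and the 30 young members with the most UMIs held 60.3% of it. Of the 4 genes called higher, Pthlh, the parathyroid hormone-related peptide, was at 29.9 and 85.2 CPM, a ratio of 2.85, with 87.0% of its old UMIs in 34 cells.

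Of the 28 bulge stem cell genes outside the rule that were high enough, 0 were called higher and 3 lower in old members, where 0.83% and 3.22% of all genes were. In the list 22 of the 30 genes lay below equal levels, and the median log2 ratio was -0.36 beside -0.21 over all genes. Sox9 was at 588 CPM (572 to 604) in young and 614 CPM (593 to 636) in old members, a ratio of 1.04 (0.998 to 1.09), whereas other keratinocytes had a ratio of 2.03 and were called higher. Nfatc1 was at 141 and 135 CPM, a ratio of 0.954 (0.868 to 1.05), and Foxc1, a transcription factor that restrains bulge cell activation, at 96.4 and 96.7 CPM, a ratio of 1.0 (0.896 to 1.12). The counting intervals of these 3 ratios included 1. Runx1, a regulator of follicle stem cell activation, was at 407 and 269 CPM, a ratio of 0.662 in members and 1.52 in other keratinocytes, and Tbx1 at a ratio of 0.620 in members and 3.13 in other keratinocytes. Postn was at a ratio of 0.576 and Npnt, a basement membrane protein at the bulge that binds integrins, at 0.596. None of these 4 passed. Runx1 stayed uncalled in all 13 alternative settings, Postn and Npnt in 10 and Tbx1 in 11. In the others these were called lower, with the lowest ratios, 0.268, 0.227 and 0.280, in thinned cells. The ratios of other keratinocytes compare cells with medians of 6562 young and 1564 old UMIs, and the part of this depth was not tested.

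The 3 bulge genes called lower were Id2, Ltbp2 and Cd34. Id2, an inhibitor of helix-loop-helix factors and a BMP target, was at 693 CPM in young, 303 CPM in old and 352 CPM in knockout members, an old over young ratio of 0.437 (0.413 to 0.462). In members with at least 5 follicle genes the Id2 ratio was 0.572 and did not pass. Ltbp2, a latent TGF-beta binding protein, was at 96.9 and 40.9 CPM, a ratio of 0.422 (0.361 to 0.492). Cd34 was at 337 and 154 CPM, a ratio of 0.459 (0.423 to 0.496), but at 0.347 in other keratinocytes. The Cd34 ratio in members was 0.253 in thinned cells and 0.667 with at least 5 follicle genes, where it did not pass. The fibroblast markers moved with Cd34, from 6020.3 to 1634 CPM in members and from 19403 to 3511 CPM in other keratinocytes, and their part in the Cd34 ratio was not tested.

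**Figure D4:**
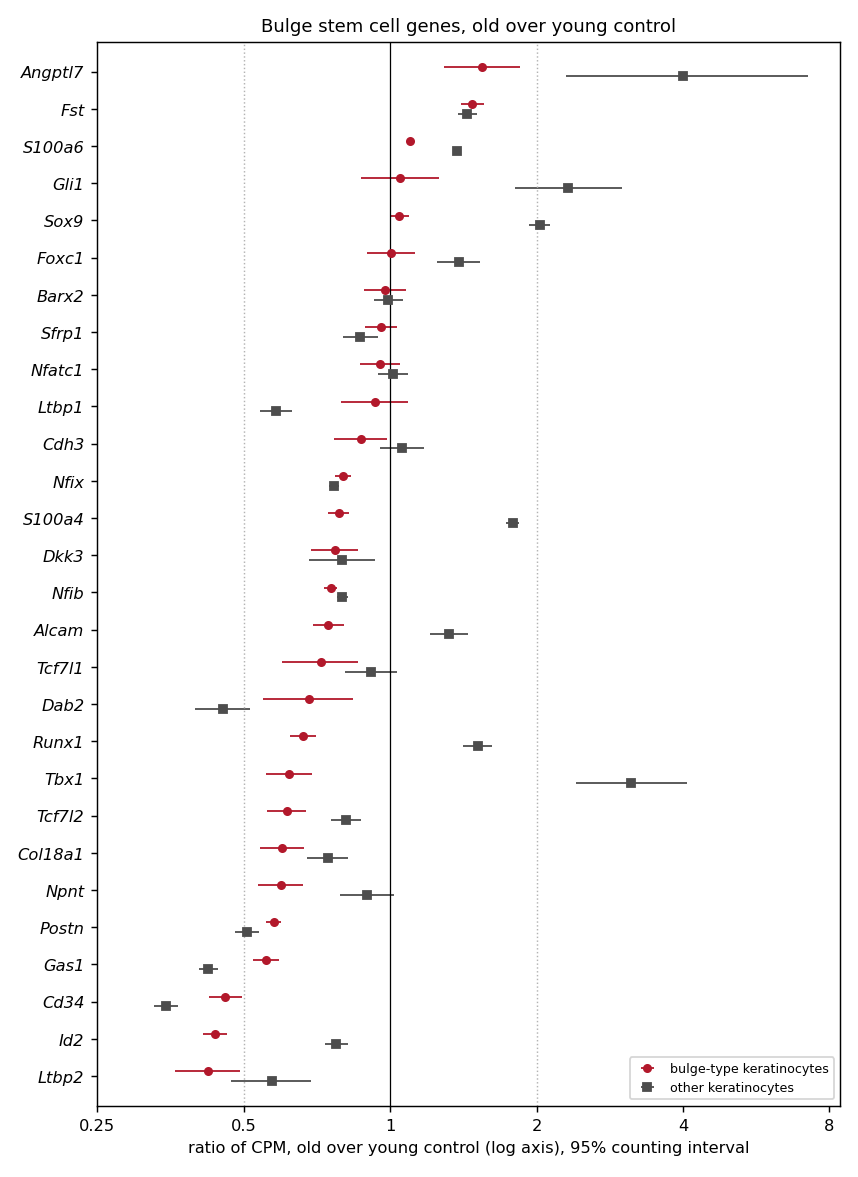
Old over young ratio of CPM (log axis, 95% counting interval) of 28 bulge stem cell genes in bulge-type keratinocytes (circles) and other keratinocytes (squares); dotted lines mark 0.5 and 2. Sox9, Foxc1 and Nfatc1 lie near 1 in the bulge-type cells, Id2, Ltbp2 and Cd34 lie below 0.5, and Tbx1 and Sox9 lie above 2 in the other keratinocytes.

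Signalling genes are read against the 0.83% of all genes called higher and 3.22% called lower in old members. In the Wnt pathway 0 of 26 genes were called in either direction (median log2 ratio -0.33), as were 0 of 10 in the Notch and 0 of 8 in the hedgehog pathway, and lists of this size hold few or no calls at those shares. Of 14 FGF and EGF receptor ligands and receptors, 1 was called higher, Areg, and 1 lower, the EGF receptor ligand gene Hbegf at 742 and 312 CPM. In the BMP pathway 2 of 20 were called lower, Id2 and Fstl1, a follistatin-like secreted protein at a ratio of 0.365 that was also called lower in other keratinocytes, and 0 higher. The BMP targets Id1 and Id3 did not follow Id2, at ratios of 1.04 and 1.25. Among secreted BMP and activin antagonists, Grem1 was at 148 and 234 CPM, a ratio of 1.58, and Fst, follistatin, at 329.8 and 486 CPM, a ratio of 1.48, and neither passed. In the TGF-beta pathway 3 of 17 were called lower, among them Ltbp2 and the ligand Tgfb2, at 95.8 and 45.8 CPM. Tgfb2 was called lower in other keratinocytes as well, at a ratio of 0.421. Its call in members was made in 6 of 13 alternative settings, and its ratio was 1.06 in thinned cells. Ptch1, the hedgehog receptor and target, was at a ratio of 1.78 and Gli1 at 1.05, and neither passed.

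Hemidesmosome and basement membrane genes, which anchor bulge cells to their niche, showed 0 calls among 23, but 22 of the 24 with a mean of at least 5 CPM lay below equal levels, with a median log2 ratio of -0.47 beside -0.21 over all genes. Col17a1, the transmembrane collagen that anchors follicle stem cells, was at 1401 CPM in young and 1029.8 CPM in old members, a ratio of 0.735 (0.712 to 0.759), close to 0.701 in other keratinocytes. Itga6, the alpha-6 integrin, was at 450.1 and 375 CPM, a ratio of 0.833. In other keratinocytes 7 of 22 were called lower, where 3.1% of all genes were. In members 0.83% of all genes were called higher and 3.22% lower. The immediate early genes, which are known to respond to tissue dissociation, had a median log2 ratio of 0.02, with 0 of 27 called higher and 1 lower; Fos was at 7987 and 7944 CPM.

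Matrix genes of fibroblasts were among the lowest ratios. Col1a1 was at 1065 CPM in young and 189 CPM in old members, a ratio of 0.177, and Col3a1 at 637 and 68.8 CPM, a ratio of 0.108. Of 11 fibroblast markers 10 were called lower in members and 11 of 12 in other keratinocytes, where Col1a1 was at a ratio of 0.0824. Over all genes 3.22% were called lower in members and 3.1% in other keratinocytes. Of the Col1a1 UMIs of young members 70.1% were in 30 cells. The melanocyte markers were called lower in 4 of 4, with Dct, dopachrome tautomerase, at 388 and 165 CPM, a ratio of 0.425, and Pmel, a melanosome protein, at 116 and 33.7 CPM, a ratio of 0.291. Without the members that held UMIs of at least 3 melanocyte markers, Dct was at a ratio of 2.84 and Pmel at 2.24; this leaves out cells by the same markers, 66 young and 35 old, and nothing is read from it.

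The knockout members were few, and the comparison with the young control was made with 191 cells and 1455432 UMIs against 581 cells and 8675857 UMIs. These UMIs were unevenly spread. The 19 knockout members with at least 5 follicle genes held 562584 UMIs, and the 197 such young members held 4426942. Members without UMIs of 3 melanocyte markers, 162 knockout and 515 young cells, held 842631 and 5854703. How far single genes rested on few knockout cells was not tested. Wwtr1, which encodes TAZ, was at 76.5 CPM in young control, 2.06 CPM (3 UMIs) in knockout and 75.6 CPM in old members. The knockout over young ratio was 0.0269 (0.00554 to 0.0790). Yap1 was at 99.0, 30.9 and 76.0 CPM, a knockout ratio of 0.312 (0.226 to 0.422). Both targeted genes were thus lower in knockout members, Wwtr1 nearly to 0 and Yap1 to 30.9 CPM. Reads at the 3′ end of a transcript need not lie in the deleted part, so the remaining Yap1 level does not measure the deletion. Of 6284 genes, 206 (3.28%) were called higher and 251 (3.99%) lower in knockout members, with a median log2 ratio of -0.12 over all genes. Of these, 153 and 111 were also called the same way in other keratinocytes of the knockout, where 8.4% of 6514 genes were called higher and 7.57% lower. With at least 3 of the 7 follicle genes required, which left 51 knockout cells, 96 genes were called higher.

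YAP and TAZ are transcriptional coactivators that act through TEAD factors. In knockout members 3.99% of all genes were called lower and 3.28% higher, with a median log2 ratio of -0.12. Of 19 genes of the YAP/TAZ and TEAD list, 4 were called lower and 0 higher, with a median log2 ratio of -0.61. The targeted Yap1 and Wwtr1 are among these 4 and enter the median. Beside Yap1 and Wwtr1 these were Ajuba, a LIM scaffold that restrains Hippo kinases, at 49.7 and 18.6 CPM, a ratio of 0.373 (0.243 to 0.551), and Amotl1, an angiomotin-like junction protein, at 110.3 and 52.2 CPM, a ratio of 0.473 (0.370 to 0.598). The other target genes named here fell short of the size rule: Amotl2 at 46.8 and 22 CPM, a ratio of 0.470 (0.317 to 0.674), Ctgf at 529 and 269 CPM, a ratio of 0.508 (0.457 to 0.563), Cyr61, a matricellular protein, at 768 and 429 CPM, a ratio of 0.559 (0.514 to 0.607), and Ptpn14, a phosphatase that retains YAP in the cytoplasm, at 0.527. In old members, where 0.83% of all genes were called higher and 3.22% lower, the same list had 0 of 18 called. Cyr61 was at 0.990, Ctgf at 0.795 and Ajuba at 1.22 of the young level. The 2 comparisons share the young control.

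The promoters of 3 of these genes are shown because their levels were lower in knockout members and each holds the TEAD core motif CATTCC, searched on both strands, within 250 bases upstream of the RefSeq start. The bases are from RefSeq on GRCm38.p6, written 5′ to 3′ on the gene's strand with the motif in capitals. Ajuba lies at chr14:54577662-54577911 on the minus strand with 2 matches, Amotl2 at chr9:102717554-102717803 on the plus strand with 1, and Cyr61 at chr3:145649986-145650235 on the minus strand with 1.
Ajuba: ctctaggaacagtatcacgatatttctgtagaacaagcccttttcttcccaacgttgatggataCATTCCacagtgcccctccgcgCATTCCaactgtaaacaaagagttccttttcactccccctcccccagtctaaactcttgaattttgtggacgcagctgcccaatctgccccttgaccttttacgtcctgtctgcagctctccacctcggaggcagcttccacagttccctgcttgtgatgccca
Amotl2: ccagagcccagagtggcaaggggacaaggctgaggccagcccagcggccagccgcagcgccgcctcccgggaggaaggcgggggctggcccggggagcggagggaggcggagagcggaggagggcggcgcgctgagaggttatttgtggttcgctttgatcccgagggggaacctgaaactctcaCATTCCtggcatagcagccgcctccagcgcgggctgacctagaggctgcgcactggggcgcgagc
Cyr61: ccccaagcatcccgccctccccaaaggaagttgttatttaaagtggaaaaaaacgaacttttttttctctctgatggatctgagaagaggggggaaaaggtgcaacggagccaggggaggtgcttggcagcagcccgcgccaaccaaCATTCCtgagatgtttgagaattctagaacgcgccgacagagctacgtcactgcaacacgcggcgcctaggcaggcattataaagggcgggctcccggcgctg
Of 32851 promoters in the RefSeq table, 4153 (12.6%) held the motif in this window. Of the 23 listed YAP/TAZ and TEAD genes 19 were in the table and 12 held it in any of their promoters. Amotl1, which was called lower, had 0 matches. Some listed genes have several promoters while the 12.6% counts single promoters, so these shares are not compared. A match describes the letters and not a bound site.

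**Figure D5:**
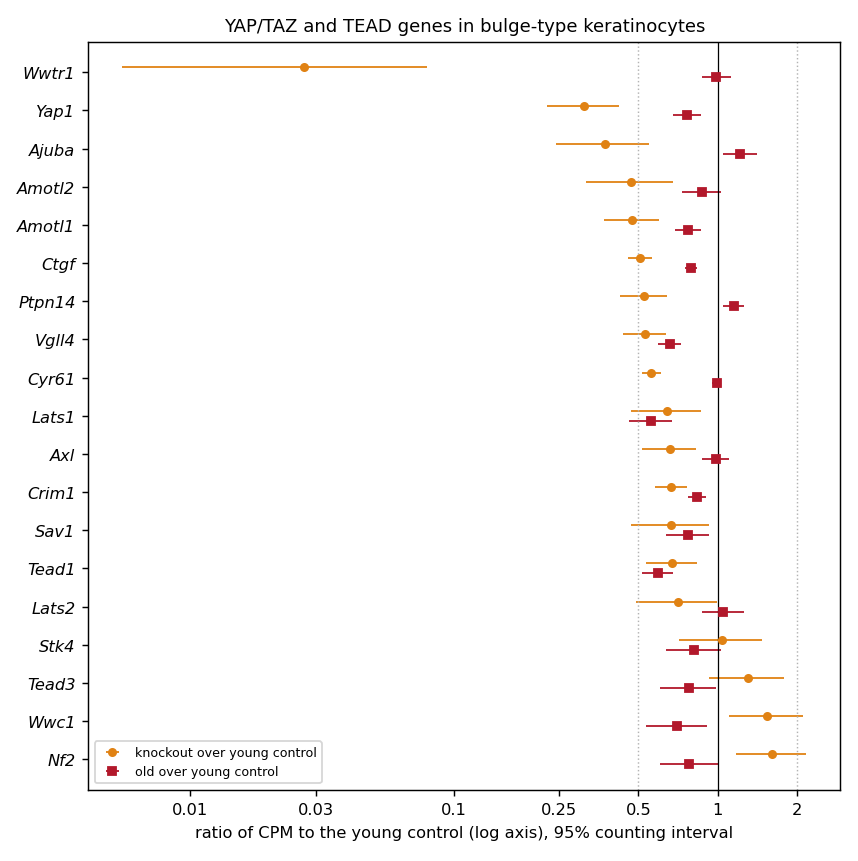
Ratio of CPM to the young control (log axis, 95% counting interval) of 19 YAP/TAZ and TEAD genes in bulge-type keratinocytes of the knockout (circles) and the old control (squares); dotted lines mark 0.5 and 2. Wwtr1, Yap1, Ajuba, Amotl2 and Amotl1 lie below 0.5 in the knockout, and none of the plotted genes lies below 0.5 in the old control.

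Of 28 bulge stem cell genes 0 were called in either direction between knockout and young members, where 3.28% of all genes were called higher and 3.99% lower, so that few calls lie in a list of this size. In the list 24 of 29 genes lay below equal levels, with a median log2 ratio of -0.44 beside -0.12 over all genes. Sox9 was at 588 and 518 CPM, a ratio of 0.881 (0.815 to 0.952). Outside that list Hoxc13 was called lower, at 113 and 32.3 CPM, a ratio of 0.285 (0.208 to 0.382), as was Tnfrsf11b, the decoy receptor osteoprotegerin, at 57.9 and 5.50 CPM, a ratio of 0.0950 (0.0408 to 0.189) in members and 1.35 in other keratinocytes. Sox4 and Slc7a8, at 0.166 and 0.105 of the young level in old members, were at 0.152 (0.125 to 0.182) and 0.107 (0.0529 to 0.192) in knockout members. Flrt3 and Afdn, at 0.277 and 0.309 in old members, were at 0.404 and 0.324. Both comparisons use the same young library. Of 13 circadian clock genes 5 were called lower and 0 higher in knockout members, beside 8 lower and 2 higher of 13 in other keratinocytes. Dbp, a clock-controlled transcription factor, was at 190.2 CPM in young, 23.4 CPM in knockout and 203 CPM in old members, and its knockout ratio in other keratinocytes was 0.119 (the labels name no time of day of harvest).

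Lipid synthesis genes were higher in knockout members. Over all genes 3.28% were called higher, with a median log2 ratio of -0.12. All 7 sebaceous gland genes that were high enough were called higher, with a median log2 ratio of 1.62. Among them were Soat1, which esterifies cholesterol, at 77.8 and 289 CPM, a ratio of 3.72 (3.28 to 4.21), and Fasn, the fatty acid synthase, at 88.1 and 229 CPM, a ratio of 2.61 (2.28 to 2.97). Elovl4, a fatty acid elongase, was at 141 and 923 CPM, a ratio of 6.56, and Fabp5, a fatty acid binding protein of epidermis and sebocytes, at 297 and 1747 CPM, a ratio of 5.88. Other knockout keratinocytes moved in the same direction and further, with Soat1 at a ratio of 11.2 and Fabp5 at 9.65, and the 10 genes of the sebaceous list summed to 3382 CPM there against 708 CPM in other young keratinocytes. In members the sums were 2207 and 836 CPM. In old members 0 of 5 sebaceous genes were called higher and 1 lower, Soat1 at 0.383, beside 0.83% and 3.22% of all genes.

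Of 10 inflammatory and wound genes, 5 were called higher and 0 lower in knockout members, where 3.28% of all genes were called higher. Cxcl1 and Cxcl2, chemokines that attract neutrophils, were at 11.3 and 136 CPM and at 4.38 and 76.3 CPM, ratios of 12.0 (9.41 to 15.5) and 17.4 (11.9 to 25.9), beside 9.28 and 14.3 in other keratinocytes. Krt16, a keratin of wounded epidermis, was at 70.0 and 216 CPM, a ratio of 3.09 (2.69 to 3.55). Ptgs2, the inducible cyclooxygenase, was at 33.7 and 196 CPM, a ratio of 5.82 (4.92 to 6.87) in members and 1.78 in other keratinocytes. Fosl1, an AP-1 transcription factor, was at 69.8 and 210.2 CPM, a ratio of 3.01, against 1.02. The immediate early and dissociation genes summed to 54332 CPM in young and 34555 CPM in knockout members, with 1 of 27 called higher and 5 lower. Smooth muscle markers, called higher in 6 of 7 in members, summed to 232 CPM in young and 1326 CPM in knockout members and to 1063 and 5267 CPM in other keratinocytes, and the part of such RNA in the other differences was not tested.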

How the data were processed

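Single-cell RNA was captured from collagenase-digested dorsal skin with the Chromium Single Cell 3′ kit, per the labels' protocols, and the submitters' processing notes name Cell Ranger 3.1.0, Seurat 3.1.5 and the mm10 build. The deposited files are counts of UMIs per gene (31053 features) and barcode, not normalized and not limited to called cell types; no label or header names a further filter by the authors. The members and gene lists were chosen with earlier results of these data known. The gene lists are 35 in number.

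UMIs of the members were summed per library and scaled to CPM of the sum, with exact Poisson 95% intervals. Ratios have exact intervals from the binomial split of the 2 counts, and log2 ratios used 0.5 added counts. Shares have exact Clopper-Pearson intervals. With 1 library per group no test was made: genes were called by size (mean of at least 20 CPM, ratio at least 2 or at most 0.5, near bound past 1.5). List medians used genes with a mean of at least 5 CPM. Genes were named as the 15 highest and 15 lowest calls by near bound, leaving out mitochondrial, ribosomal, haemoglobin, immunoglobulin and unnamed genes, genes of the rule, and genes over 5 times more abundant in the remaining cells; the 10 highest ratios of members over other keratinocytes in both controls and listed genes were added. Features sharing a symbol (71) were kept apart by identifier. The summing and calling steps were tested on simulated data. Doublets were not removed: Scrublet (scanpy 1.11.5) with its automatic threshold marked 3.62%, 0% and 0.0166% of young, knockout and old cells, so removal of the 8% with the highest scores was an alternative. Other alternatives were edgeR 4.0.16 TMM and median-of-ratios factors, no CPM minimum, mean CPM over cells, thinning, and stricter limits on UMIs, mitochondrial share, follicle genes and epithelial genes. Gene positions are from GENCODE on mm10.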

Additional observations from a re-analysis of the deposited data

How the results depend on the processing

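No paired analysis was possible because each group is 1 library. The share of members depended on the depth and the limits. In the young control it was 2.75% thinned to 1500 UMIs, 5.72% with at least 2000 UMIs and 3.47% with at least 3 of the 7 follicle genes. In the knockout it was 0.994%, 3.1% and 0.542% under the same settings, 3.03% with at most 10% mitochondrial UMIs and 1.73% with at least 3 of 8 epithelial genes. In the old control it was 3.64%, 10.2% and 2.62%, and 6.33% with at most 10% mitochondrial UMIs. The old control was above the young one under these settings except with at least 3 follicle genes; at least 5 were held by 197 young and 93 old members. The cause was not tested.

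The count of genes higher in old members, 51, was 89 with TMM factors, 96 with median-of-ratios factors, 307 with no CPM minimum, 105 as a mean over cells and 90 in thinned cells. The 198 lower genes were 120, 118, 483, 332 and 183 under the same settings. In thinned cells 28 of the 51 and 49 of the 198 calls were kept, and the cause was not tested. The 206 genes higher in the knockout were 96 with at least 3 follicle genes and 295 without members holding 3 melanocyte genes. The 251 lower genes were 243 and 266. Without members holding 3 melanocyte genes, 178 of the 206 and 178 of the 251 calls were kept.

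Of 80 genes called between old and young members that were followed, 71 kept their direction in every alternative and 32 also their call. Alternatives with a ratio of 0 were left out of the ratios followed. The 32 do not count Slc7a8, which had such a ratio and was called lower in all 13 alternatives. Without members holding 3 melanocyte genes the ratio reversed for Syt4 (1.06), Pmel (2.24), Dct (2.84), Tyrp1 (2.21) and Ptgds (4.46). In thinned cells it reversed for Dpt (1.17), Serpinb11 (0.981), Ptgds (1.11) and Tgfb2 (1.06), and with at least 5 follicle genes for Cxcl9 (1.08). Thinned ratios rest on few UMIs, and all intervals exclude variation between animals.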
